A study of Arabidopsis thaliana with 20 samples.

Results

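The 10 genes described here encode heat shock transcription factors of Arabidopsis thaliana. They were chosen by gene identifier, with no threshold on their values but with earlier results of these data known. They are 10 of the 33602 genes in the count files. Of the 21 members of the family, they are HSFA1A, HSFA1B, HSFA1D, HSFA2, HSFA4A, HSFA7A, HSFA8, HSFB1, HSFB2A and HSFB2B. The filter on low counts left 19954 genes for testing, among them 9 of the 10 factors. The exception was HSFB1, which had no counts. RNA was sequenced from whole rosettes of plants 3 weeks old, with 5 rosettes pooled in every library. The double mutant wrky25 wrky33, the single mutant wrky75 and the wild type Col-0 were each fumigated with 350 ppb ozone over 2 h or left as controls without ozone. Each mutant had 3 ozone and 3 control libraries, and Col-0 had 4 of each. The alleles behind the mutant names and the background of the mutants are not named by the labels. The labels call the pools biological replicates, and p-values measure the spread between these pools.

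Heat shock factors bind heat shock elements, short DNA repeats of the unit GAA in alternating orientation, and switch on genes of chaperones. In Arabidopsis the HSFA1 proteins are present before stress, are held inactive by chaperones and start the response. HSFA2 and HSFA7A are among the factors whose genes the HSFA1 proteins switch on, HSFA4A and HSFA8 have been linked to reactive oxygen species, and class B factors lack the activation motif of class A and mostly repress. Ozone enters leaves through stomata and breaks down to reactive oxygen species.

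Levels are given as CPM, counts scaled to a common library total with a correction for composition, and each value belongs to 1 library in the order of its replicate number. The smallest library had 20486137 counts and the largest 20771667, which is a spread of 1.38%, so depth hardly differed between groups. Each of the 9 tested factors had at least 0.55 CPM in every library. The 4 leaf markers fixed for a check of the tissue (RBCS1A, LHCB1.3, CA1 and RCA) reached 2147 CPM or more in every library, with sums of 20793 to 28840 CPM in wrky25 wrky33 ozone and 51206 to 53840 CPM in wrky25 wrky33 control libraries, 18352 to 31259 and 42445 to 52834 CPM in those of wrky75, and 17024 to 31721 and 38727 to 53252 CPM in those of Col-0. All 4 were called lower under ozone in each genotype. The seed marker SESA3 was at 0 in all 20 libraries, the root markers EXPA7 and COBL9 and the flower marker AP3 stood at 0.10 CPM or less, and the root marker PYK10 lay between 16.6 and 79.8 CPM. Of the 3 flower markers AG alone passed the filter, with 0.26 to 1.25 CPM under ozone and 0.91 to 2.72 CPM in control, and it was called lower in each genotype. The transcripts of WRKY25, WRKY33 and WRKY75 were still counted in the mutants named after them, so the counts do not check the genotype labels, which are used here as given. In wrky25 wrky33, WRKY25 was at 176 to 223 CPM under ozone, against 104 to 144 CPM in Col-0. In control it was at 3.14 to 5.55 CPM, against 8.38 to 16.09 CPM. WRKY33 was at 223.77 to 426.37 CPM under ozone, against 320.5 to 729.95 CPM, and at 12.57 to 14.19 CPM in control, against 14.75 to 23.81 CPM. In wrky75, WRKY75 was at 28 to 72.78 CPM under ozone, against 47.98 to 128.54 CPM in Col-0, and at 0.3 to 0.43 CPM in control, against 0.27 to 0.73 CPM. The ozone and control libraries of Col-0 replicate 4 were made in addition to the 3 replicates of the other groups, per the series' design text, and results that rest on them are also given without them.

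Under ozone most of the measured heat shock factors were higher than in control, and the size of the difference set the members apart. HSFA2 was 99.3-fold higher in wrky25 wrky33, 77.9-fold in wrky75 and 78.3-fold in Col-0. HSFA4A and HSFA8 followed with 4.67-fold to 19.7-fold, HSFB2A with 3.18-fold to 4.42-fold, and HSFA1D and HSFB2B with 2.03-fold to 2.47-fold. HSFA7A passed the test in wrky25 wrky33 and Col-0, at 2.45-fold and 3.27-fold. HSFA1A and HSFA1B did not pass the test in any genotype. In all, 7 of 9 tested factors were called higher in wrky25 wrky33, 6 in wrky75 and 7 in Col-0, and 0 were called lower. The same test called 31.1% of all 19954 genes higher and 33.9% lower in wrky25 wrky33, 32% higher and 36.1% lower in wrky75, and 33.3% higher and 36.4% lower in Col-0. With upper-quartile scaling the split of all called genes moved towards lower calls, at 5145 higher and 8528 lower in wrky25 wrky33 (6207 and 6773 in the main scaling) and 5436 higher and 9176 lower in Col-0 (6635 and 7272). The test was edgeR's quasi-likelihood F-test with Benjamini-Hochberg adjustment over all genes tested and a threshold of 0.05. The median log2 fold change of the tested factors was 1.3, 1.05 and 1.71 in wrky25 wrky33, wrky75 and Col-0, against −0.09, −0.11 and −0.08 for all genes tested. Because the factors were chosen with earlier results known, these shares and medians describe them and are no test of the family. Every ozone library exceeded every control library for 7 factors in wrky25 wrky33, 7 in wrky75 and 6 in Col-0, and 33.9%, 33.4% and 29.3% of all genes did so. Whole rosettes were sampled, so that fewer cells of a type and less RNA per cell cannot be told apart. The part of the lower leaf and flower markers in these differences was not tested.

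**Figure D1:**
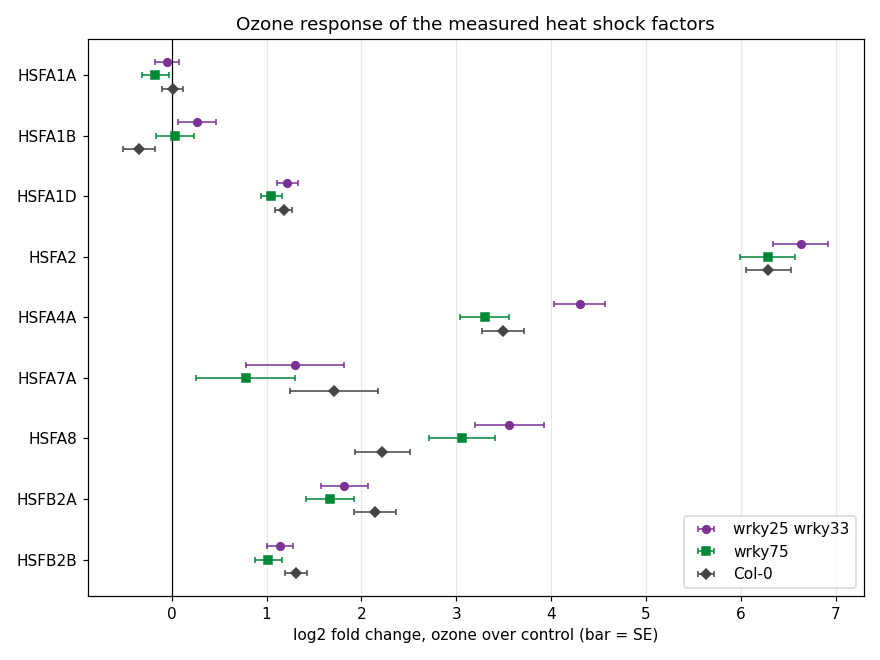
Log2 fold change of each of the 9 measured heat shock factors, ozone over control (x axis, log2 units), in wrky25 wrky33 (circles), wrky75 (squares) and Col-0 (diamonds), with standard errors as bars. HSFA2 lies between 6.28 and 6.63 in the 3 genotypes, while HSFA1A and HSFA1B lie within 0.34 of 0.

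The DNA just upstream of HSFA2, HSFA4A and HSFA7A is shown because these are the factors among the 10 with a match to a heat shock element in the 300 bases before the start of the gene. The stretches are the bases before the annotated start in the RefSeq annotation of TAIR10.1, read 5′ to 3′ on the strand of the gene and ending at the last base before it, up to a length of 200. They were taken from chr2:11135466-11135623 (plus strand, 158 bases, shortened where a neighbouring gene begins), chr4:10349903-10350102 (minus strand) and chr3:19264941-19265140 (plus strand). Capitals mark matches to heat shock elements of 2 or 3 units and to the W-box.
HSFA2: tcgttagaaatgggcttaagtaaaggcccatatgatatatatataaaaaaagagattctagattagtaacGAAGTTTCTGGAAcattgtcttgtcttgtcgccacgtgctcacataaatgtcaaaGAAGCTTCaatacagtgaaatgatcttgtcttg
HSFA4A: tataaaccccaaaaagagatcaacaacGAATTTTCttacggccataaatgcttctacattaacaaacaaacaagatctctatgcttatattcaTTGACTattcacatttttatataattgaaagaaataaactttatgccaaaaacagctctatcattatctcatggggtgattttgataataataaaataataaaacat
HSFA7A: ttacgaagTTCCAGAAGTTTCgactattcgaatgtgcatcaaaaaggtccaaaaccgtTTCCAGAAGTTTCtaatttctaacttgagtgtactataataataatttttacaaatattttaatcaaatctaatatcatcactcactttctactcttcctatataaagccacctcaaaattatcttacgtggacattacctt
An element of 3 units was searched as the units GAA, TTC and GAA, or TTC, GAA and TTC, with any 2 bases between neighbours, an element of 2 units as GAANNTTC or TTCNNGAA, which the longer form contains, and the W-box, the element that WRKY factors bind, as TTGACC or TTGACT, all on both strands. HSFA2 has a 3-unit match that begins 88 bases before the start and a further 2-unit match at 33 bases. HSFA7A has 3-unit matches at 192 and at 142 bases. HSFA4A has a 2-unit match at 173 bases and a W-box at 107 bases. A 3-unit match was found for 2 of the 10 factors and for 0.478% of 32834 annotated genes. A 2-unit match was found for 3 of 10 factors and for 19.2% of genes. The W-box was found for 2 of 10 factors, HSFA4A and HSFB2B, and for 32.0% of genes. Outside the 10, HSFA7B also had a 3-unit match, at 157 bases. Such matches describe letters in this window and no binding.

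The HSFA1 factors start the heat response, and of the 3 described here HSFA1D was called higher in each genotype whereas HSFA1A and HSFA1B were called in none. In wrky25 wrky33, HSFA1D (AT1G32330, chr1:11656964-11660471, minus strand) had 20.3, 22.9 and 21.1 CPM under ozone and 8.64, 9.89 and 9.12 CPM in control. In wrky75, HSFA1D had 21.2, 18 (to 2 digits) and 20.2 CPM under ozone and 9.3, 8.57 and 10.9 CPM in control. In Col-0, HSFA1D had 19.9, 22.9, 22.5 and 20.2 CPM under ozone and 8.63, 9.22, 9.44 and 10.4 CPM in control. All ozone libraries lay above all control libraries in each genotype. Ozone over control, its log2 fold changes were 1.22 ± 0.11 in wrky25 wrky33, 1.05 ± 0.11 in wrky75 and 1.18 ± 0.09 in Col-0 (adjusted p = 2.68e-08, 1.26e-07 and 3.44e-09 in the same order).

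In wrky25 wrky33, HSFA1A (AT4G17750, chr4:9869818-9871646, minus strand) had 4.83, 4.85 and 4.37 CPM under ozone and 4.77, 4.75 and 5.07 CPM in control. In wrky75, HSFA1A had 3.5, 4.14 and 4.02 CPM under ozone and 4.78, 4.45 and 3.92 CPM in control. In Col-0, HSFA1A had 4.55, 4.49, 5.16 and 5.38 CPM under ozone and 4.67, 4.11, 4.8 and 5.83 CPM in control. The ozone and control libraries overlapped in every genotype. For HSFA1A the log2 fold changes, ozone over control, were −0.05 ± 0.13 in wrky25 wrky33, −0.17 ± 0.14 in wrky75 and 0.01 ± 0.11 in Col-0 (adjusted p = 0.738, 0.265 and 0.927 in the same order). With upper-quartile scaling, in which the median of all genes in wrky75 was −0.295 against −0.11 in the main scaling, HSFA1A was called lower in wrky75 at a log2 fold change of −0.36 (edgeR adjusted p = 0.0251).

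In wrky25 wrky33, HSFA1B (AT5G16820, chr5:5530195-5532889, plus strand) had 9.19, 9.28 and 11.1 CPM under ozone and 10.1, 7.65 and 6.69 CPM in control. In wrky75, HSFA1B had 7.96, 9.0 and 9.91 CPM under ozone and 10.2, 7.57 and 8.4 CPM in control. In Col-0, HSFA1B had 6.51, 7.32, 7.4 and 7.1 CPM under ozone and 9.43, 7.35, 6.61 and 12.4 CPM in control. The groups overlapped in every genotype, and the 4 Col-0 ozone libraries were the most alike, with a coefficient of variation of 5.73% against 29.1% in Col-0 control. Ozone over control, the log2 fold changes were 0.27 ± 0.20 in wrky25 wrky33, 0.04 ± 0.20 in wrky75 and −0.34 ± 0.17 in Col-0 (adjusted p = 0.233, 0.87 and 0.0899 in the same order). In Col-0 the call depended on settings: HSFA1B was called lower with upper-quartile scaling (log2 fold change −0.54, edgeR adjusted p = 0.0101) and without Col-0 control replicate 2 (−0.42, adjusted p = 0.0486) or 3 (−0.46, adjusted p = 0.0245), whereas it stood at −0.08 (adjusted p = 0.668) without both Col-0 libraries of replicate 4. HSFA1B overlaps SYP21, a syntaxin gene on the opposite strand, over 44 bases, or 1.68% of its span in the files, and SYP21 was itself called higher under ozone, at 1.48 ± 0.16, 1.12 ± 0.16 and 1.10 ± 0.14 in wrky25 wrky33, wrky75 and Col-0. The library kit does not mark strand and the strand setting of the counting is not stated, so reads from the shared bases cannot be assigned to either gene.

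HSFA2 (AT2G26150, chr2:11135624-11137792, plus strand), the factor that prolongs the heat response and that carries the upstream elements shown above, had the largest fold change of the 9. In wrky25 wrky33, HSFA2 had 138, 159.9 and 117 CPM under ozone and 1.09, 1.75 and 1.32 CPM in control. In wrky75, HSFA2 had 109, 132 and 102 CPM under ozone and 1.01, 2.11 and 1.26 CPM in control. In Col-0, HSFA2 had 111, 149.7, 105 and 182 CPM under ozone and 1.51, 1.62, 2.25 and 1.59 CPM in control. No group pair came near to overlap, since the lowest ozone library had 102 CPM and the highest control library 2.25 CPM. On the log2 scale its fold changes under ozone were 6.63 ± 0.29 in wrky25 wrky33, 6.28 ± 0.29 in wrky75 and 6.29 ± 0.24 in Col-0 (adjusted p = 6.34e-12, 5.84e-12 and 4.59e-13 in the same order). Larger log2 fold changes were found for 153 of 19954 genes in wrky25 wrky33, 221 in wrky75 and 176 in Col-0.

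HSFA7A (AT3G51910, chr3:19265141-19266806, plus strand), which like HSFA2 is induced by heat, rested on the fewest counts of the 9. In wrky25 wrky33, HSFA7A had 1.42, 3.46 and 2.03 CPM under ozone and 0.84, 0.9 and 1.06 CPM in control. In wrky75, HSFA7A had 1.78, 2.63 and 1.23 CPM under ozone and 0.9, 1.2 and 1.16 CPM in control. In Col-0, HSFA7A had 1.42, 2.59, 0.91 and 5.38 CPM under ozone and 0.55, 0.72, 0.64 and 1.18 CPM in control. The groups did not overlap in either mutant, whereas Col-0 ozone replicate 3 lay below Col-0 control replicate 4. For HSFA7A the log2 fold changes, ozone over control, were 1.3 ± 0.52 in wrky25 wrky33, 0.78 ± 0.52 in wrky75 and 1.71 ± 0.46 in Col-0 (adjusted p = 0.0362, 0.189 and 0.00285 in the same order). The call in wrky25 wrky33 was lost with upper-quartile scaling (1.11, adjusted p = 0.0573) and without ozone replicate 2 of that mutant (0.88, adjusted p = 0.19) or without control replicate 1, 2 or 3 (adjusted p = 0.0915, 0.081 and 0.0599). In Col-0 it held at 1.07 ± 0.39 (edgeR adjusted p = 0.0214) without ozone replicate 4, the highest library, and at 1.40 ± 0.41 (edgeR adjusted p = 0.0066) without both libraries of replicate 4. In wrky75 the difference of HSFA7A became a call with the replicate number as a block in the fit (edgeR adjusted p = 0.0304).

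HSFA4A (AT4G18880, chr4:10347479-10349902, minus strand), a substrate of the mitogen-activated protein kinases MPK3 and MPK6 that acts in responses to hydrogen peroxide, was second to HSFA2. In wrky25 wrky33, HSFA4A had 169, 189 and 126 CPM under ozone and 10.1, 7.35 and 6.99 CPM in control. In wrky75, HSFA4A had 135, 113 and 90.6 CPM under ozone and 9.35, 15.3 and 9.6 CPM in control. In Col-0, HSFA4A had 139.5, 112, 89.9 and 170.3 CPM under ozone and 10.1, 11.3, 11.01 and 13.1 CPM in control. Ozone libraries were far above control libraries throughout, and the double mutant held both the highest ozone library and the lowest control library of all 20. Ozone over control, the log2 fold changes were 4.30 ± 0.27 in wrky25 wrky33, 3.30 ± 0.26 in wrky75 and 3.49 ± 0.22 in Col-0 (adjusted p = 3.71e-10, 4.11e-09 and 2.28e-10 in the same order).

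HSFA8 (AT1G67970, chr1:25484449-25486512, minus strand), a factor reported to move to the nucleus when it is oxidised, was called higher in each genotype. In wrky25 wrky33, HSFA8 had 33.6, 35.6 and 30.9 CPM under ozone and 3.33, 2.8 and 2.33 CPM in control. In wrky75, HSFA8 had 22.1, 38.4 and 30.7 CPM under ozone and 2.77, 6.23 and 1.91 CPM in control. In Col-0, HSFA8 had 19.5, 31.8, 28.5 and 27.6 CPM under ozone and 4.42, 8.88, 4.16 and 5.51 CPM in control. The groups did not overlap in any genotype, and replicate 2 was the highest control library in both wrky75 and Col-0. On the log2 scale the fold changes under ozone were 3.56 ± 0.36 in wrky25 wrky33, 3.06 ± 0.35 in wrky75 and 2.22 ± 0.29 in Col-0 (adjusted p = 1.36e-07, 4.77e-07 and 1.86e-06 in the same order).

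The class B factors HSFB2A, which has a role in the development of gametophytes, and HSFB2B, a repressor of heat-inducible genes, were called higher in each genotype. In wrky25 wrky33, HSFB2A (AT5G62020, chr5:24915807-24917643, plus strand) had 25.9, 26.9 and 19.4 CPM under ozone and 5.86, 6.35 and 8.21 CPM in control. In wrky75, HSFB2A had 28.4, 34.9 and 24.98 CPM under ozone and 6.54, 12.7 and 8.5 CPM in control. In Col-0, HSFB2A had 27.3, 32.02, 25.1 and 45.7 CPM under ozone and 5.62, 8.02, 7.73 and 8.01 CPM in control. Ozone and control libraries were apart in each genotype. For HSFB2A the log2 fold changes, ozone over control, were 1.82 ± 0.25 in wrky25 wrky33, 1.67 ± 0.25 in wrky75 and 2.14 ± 0.22 in Col-0 (adjusted p = 5.78e-06, 1.03e-05 and 9.22e-08 in the same order).

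In wrky25 wrky33, HSFB2B (AT4G11660, chr4:7042354-7044708, plus strand) had 17.3, 20.2 and 14.1 CPM under ozone and 8.2, 8.25 and 6.94 CPM in control. In wrky75, HSFB2B had 16.2, 17.5 and 15.03 CPM under ozone and 7.19, 9.05 and 7.79 CPM in control. In Col-0, HSFB2B had 17.1, 19.7, 16.6 and 22.2 CPM under ozone and 7.58, 7.35, 8.22 and 7.37 CPM in control. Here too the groups did not overlap. In HSFB2B the log2 fold changes, ozone over control, were 1.14 ± 0.14 in wrky25 wrky33, 1.02 ± 0.14 in wrky75 and 1.31 ± 0.12 in Col-0 (adjusted p = 1.48e-06, 4.36e-06 and 2.88e-08 in the same order). HSFB2B overlaps AT4G11670 on the opposite strand over 465 bases, 22.4% of its span in the files, and AT4G11670 was also called higher, at 1.57 ± 0.10, 1.58 ± 0.10 and 1.38 ± 0.09 in wrky25 wrky33, wrky75 and Col-0. Reads from the shared bases cannot be told apart, and their part in the difference of HSFB2B was not tested.

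HSFB1 (AT4G36990, chr4:17440177-17442151, plus strand), a repressor of heat-inducible genes of class B, had 0 counts in all 20 libraries. In the files the gene model AT4G36988 has the same position and strand as HSFB1 over the full 1975 bases, and it too had 0 counts throughout. Of 85 genes in the files whose position and strand equal those of another gene, 83 (97.6%) were at 0 in every library, against 7084 of 33517 other genes (21.1%). A count of 0 allows up to 3 counts by counting error alone, but for a gene in such a pair the zeros were not read as absence of the transcript. HSFB1 is therefore left out of every comparison.

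**Figure D2:**
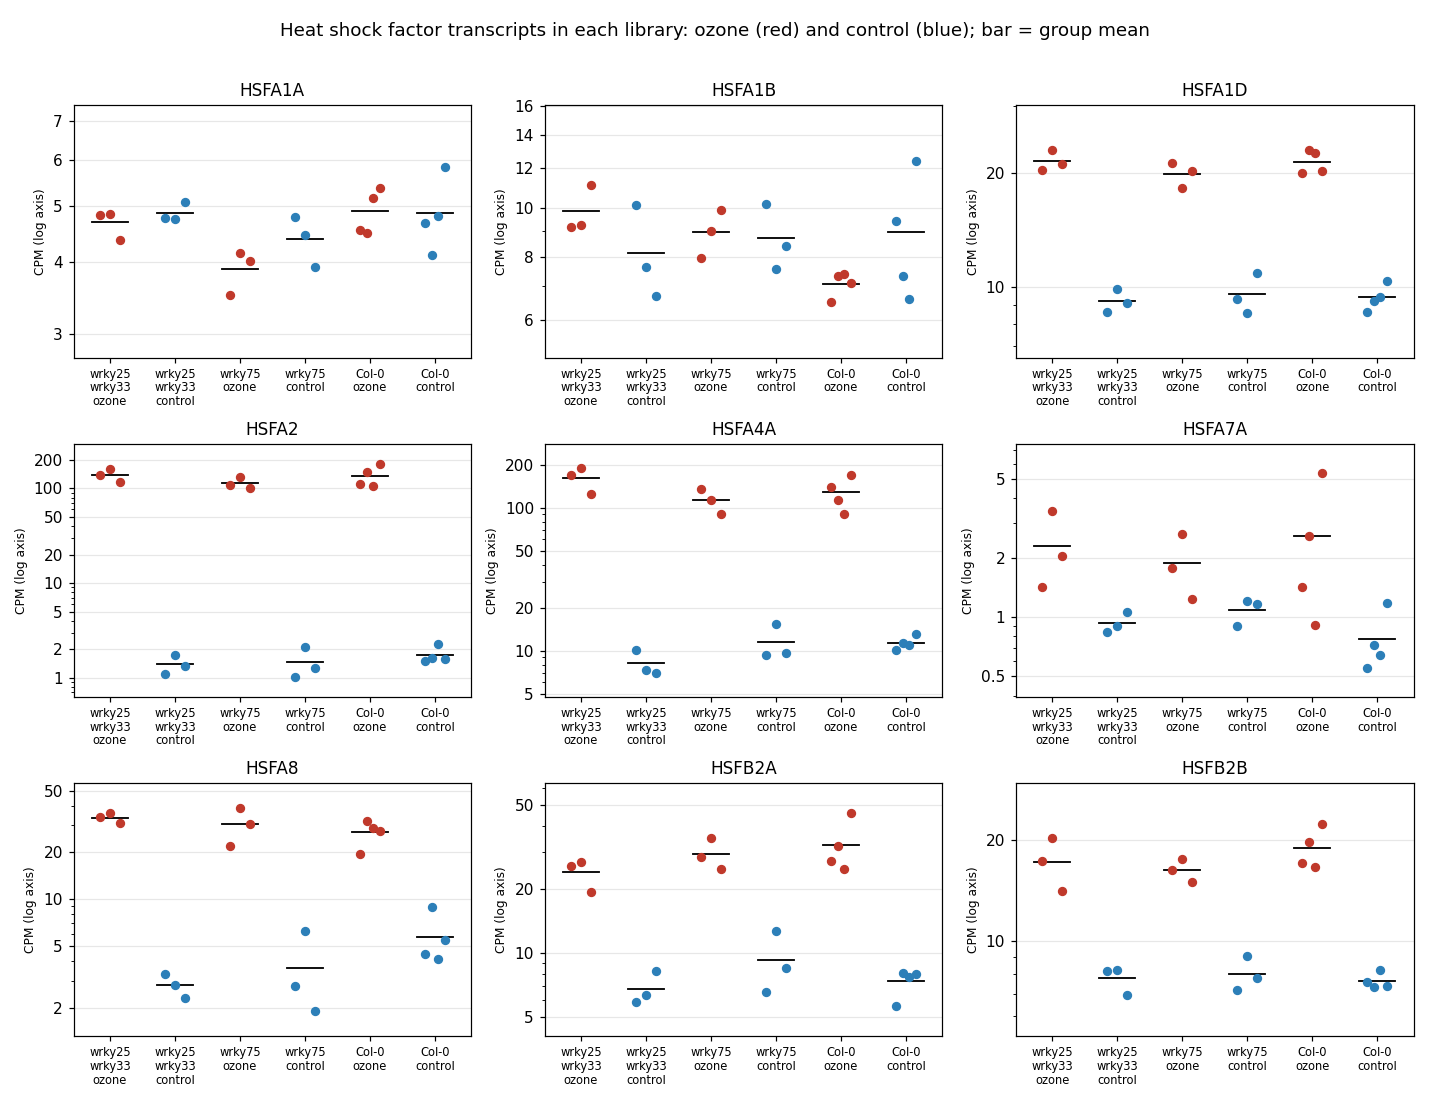
Level of each measured heat shock factor in each of the 20 libraries (points; y axis in CPM on a log axis with its own range per panel), with ozone in red, control in blue and the group mean as a bar. Ozone and control points are separated for HSFA1D, HSFA2, HSFA4A, HSFA8, HSFB2A and HSFB2B in all 3 genotypes and overlap for HSFA1A and HSFA1B.

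To compare levels between factors, CPM was divided by the exon length of each gene in kb. Without ozone the levels lay close together in Col-0, between 2.88 for HSFA1A and 4.84 for HSFA4A, with HSFA2 at 0.929 and HSFA7A at 0.667 CPM per kb, and neighbours in that order overlapped between libraries except HSFA1A and HSFA2. Under ozone the order in Col-0 began with HSFA2 at 72.9 and HSFA4A at 54.5 CPM per kb, whose libraries overlapped. HSFB2A at 18.5 and HSFA8 at 15.6 CPM per kb came next and overlapped with each other, as did HSFA1D at 10.2 and HSFB2B at 8.33 CPM per kb. HSFA1B at 3.53, HSFA1A at 2.91 and HSFA7A at 2.22 CPM per kb closed the order, the last pair with overlap. In wrky25 wrky33 under ozone the order was the same except that HSFA8 (19.4 CPM per kb) stood above HSFB2A (13.7 CPM per kb) without overlap. In wrky75 under ozone HSFA8 (17.7 CPM per kb) and HSFB2A (16.8 CPM per kb) overlapped. Among control libraries HSFA1D led in wrky25 wrky33 at 4.41 CPM per kb and HSFB2A in wrky75 at 5.27 CPM per kb, each with overlap to the next, and HSFA2 came last at 0.739 and 0.778 CPM per kb.

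The make-up of the summed level of the 9 measured factors differed accordingly, as a description of the same values. HSFA2 and HSFA4A together took 69.9% ± 1.97 in wrky25 wrky33 under ozone and 16.6% ± 1.72 in control (SD, n = 3 each). In wrky75 they took 64.6% ± 3.17 and 19.1% ± 2.88 (SD, n = 3 each), and in Col-0 67.1% ± 3.51 and 19.8% ± 1.07 (SD, n = 4 each). The shares of HSFA1A, HSFA1B and HSFA1D together were 9.0% under ozone and 44.8% in control in wrky25 wrky33, 9.78% and 40.6% in wrky75, and 9.12% and 40.6% in Col-0. HSFB2A and HSFB2B together took 10.5%, 14.2% and 14.2% under ozone in wrky25 wrky33, wrky75 and Col-0, against 29%, 30% and 26% in control.

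**Figure D3:**
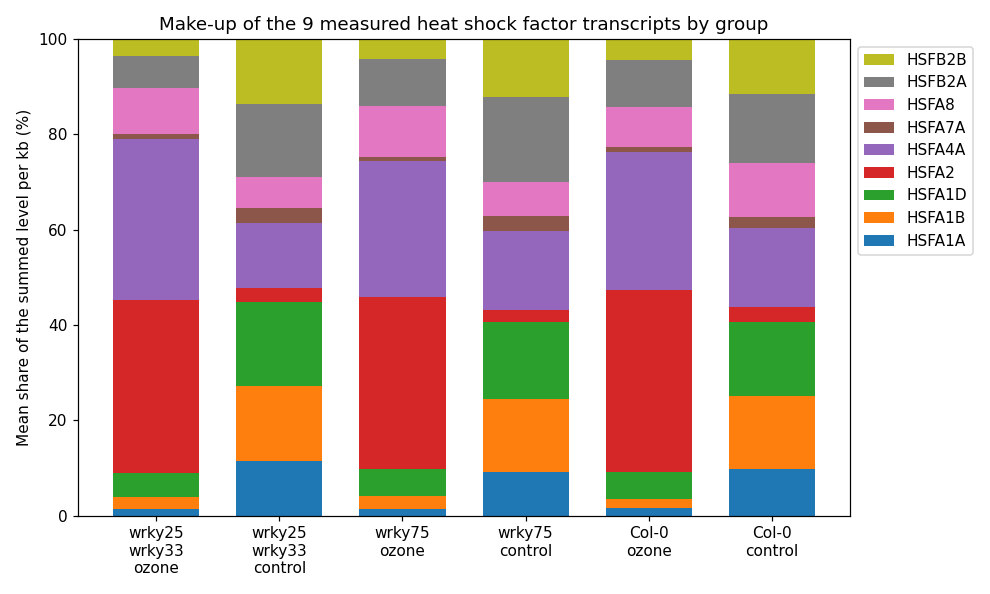
Mean share of each of the 9 measured heat shock factors in their summed level per kb of exon (y axis, percent; stacked bars from 0 to 100) in each group, with ozone left of control for each genotype. HSFA2 and HSFA4A fill 64.6% to 69.9% of the bar under ozone and 16.6% to 19.8% in control.

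The genes most like HSFA2 and HSFA4A over the 20 libraries were named by the root mean square difference of centred log2(CPM + 1) values, over genes that averaged 5 CPM or more. Nearest to HSFA2 were HOP3, a co-chaperone of HSP90 and HSP70 (difference 0.27), AT3G01830 (0.29) and SUFE2 (0.30). Nearest to HSFA4A were APK2A (0.19), FBS1 (0.21) and MLO12 (0.23). In Col-0 their log2 fold changes under ozone were 5.70 ± 0.22, 6.46 ± 0.44 and 6.05 ± 0.24 for the genes near HSFA2, and 3.56 ± 0.21, 3.87 ± 0.25 and 4.64 ± 0.34 for those near HSFA4A. The genes were picked over these same libraries, so fold changes like those of the 2 factors follow from the choice. In some groups most of the factors were highest in the same library. In wrky25 wrky33, ozone replicate 2 held the highest level of 8 of the 9 factors, in wrky75 ozone replicate 2 and control replicate 2 held that of 6 each, and in Col-0 ozone replicate 4 held that of 6. In Col-0 control replicate 4 held that of 5, and in wrky25 wrky33 each control library held that of 3. The share of all genes highest in these libraries was not counted.

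Of the 11 other genes of the family, 6 passed the filter. In wrky25 wrky33, 2 were called higher and 2 lower, in wrky75 1 and 3, and in Col-0 2 and 3. Of all genes 31.1% were called higher and 33.9% lower in wrky25 wrky33, 32% and 36.1% in wrky75, and 33.3% and 36.4% in Col-0, so that 2 of 6 in each direction in wrky25 wrky33 is near the share of all genes. HSFA4C, the closest relative of HSFA4A, was called higher at 1.94 ± 0.17, 1.81 ± 0.17 and 1.78 ± 0.15 in wrky25 wrky33, wrky75 and Col-0. HSFA5 was called higher in wrky25 wrky33 (0.36 ± 0.14) and had 0.08 ± 0.14 in wrky75 and 0.20 ± 0.12 in Col-0. HSFA3, a factor that DREB2 proteins switch on, was called higher in Col-0 (0.91 ± 0.29). It had 0.00 ± 0.30 in wrky25 wrky33 and −0.58 ± 0.31 in wrky75, and the difference between genotypes was not called. Its control libraries had 1.29 to 1.55, 1.11 to 1.63 and 0.32 to 0.95 CPM in wrky25 wrky33, wrky75 and Col-0, the last on 53 counts in all. Its ozone means were 1.38, 0.926 and 1.21 CPM in the same order. HSFC1 was called lower at −1.23 ± 0.46, −2.51 ± 0.51 and −2.43 ± 0.40, and HSFB4 at −0.51 ± 0.19, −0.52 ± 0.19 and −0.98 ± 0.17. The values of HSFC1 rest on 23, 11 and 21 counts in all in the ozone groups, and it overlaps AT3G24518 on the opposite strand. HSFA1E, the remaining HSFA1 gene, was called lower in wrky75 (−0.98 ± 0.24) and Col-0 (−0.84 ± 0.21), while its value in wrky25 wrky33 was −0.40 ± 0.23 without a call. Their median was −0.20, −0.55 and −0.32 in the 3 genotypes, against −0.09, −0.11 and −0.08 for all genes tested. HSFA6A, HSFA6B and HSFB3 had too few counts for a test, at 0.50 CPM or less in every library, and HSFA7B and HSFA9 had 0 counts in all 20.

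Genes that regulate heat shock factors or act with them were counted next, 11 in all and all tested. In each genotype 10 were called higher and 1 lower, where 31.1% to 33.3% of all genes were called higher and 33.9% to 36.4% lower. The largest were DREB2C, with 5.0 ± 0.74, 4.57 ± 0.79 and 4.65 ± 0.74 in wrky25 wrky33, wrky75 and Col-0 on 5 or 6 counts per control group, and DREB2A, with 5.43 ± 0.31, 4.61 ± 0.29 and 4.28 ± 0.25. Both encode activators of heat and drought genes that act upstream of HSFA3. ROF2, an immunophilin that binds HSFA2 complexes, stood at 4.02 ± 0.28, 3.15 ± 0.27 and 3.36 ± 0.24. The HSP90 genes HSP90.2 and HSP90.3, whose proteins hold HSFA1 factors inactive, were called higher too (in Col-0 2.76 ± 0.16 and 2.39 ± 0.15), but they are near-identical copies and their counts may share reads. MPK3 stood at 2.75 ± 0.33, 1.49 ± 0.32 and 1.94 ± 0.28. The gene called lower was HSBP, which encodes a protein that binds heat shock factors and dampens them, at −0.30 ± 0.08, −0.37 ± 0.08 and −0.31 ± 0.07. The median of the list, which was chosen with earlier results known, was 2.70, 2.45 and 2.39 in wrky25 wrky33, wrky75 and Col-0. For all genes tested it was −0.09, −0.11 and −0.08.

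Of 17 known target genes of heat shock factors 14 were tested, and 11 were called higher in each genotype, where 31.1% of all genes were called higher in wrky25 wrky33, 32% in wrky75 and 33.3% in Col-0. Lower calls numbered 0 in wrky25 wrky33, 1 in wrky75 and 1 in Col-0. HSP90.1 stood at 7.04 ± 0.43, 6.98 ± 0.43 and 6.70 ± 0.36 in wrky25 wrky33, wrky75 and Col-0. HOP3 stood at 6.03 ± 0.26, 5.70 ± 0.26 and 5.70 ± 0.22, and FES1A, which stabilises HSP70, at 4.96 ± 0.22, 5.03 ± 0.22 and 5.08 ± 0.20. The chaperone HSP70 stood at 5.77 ± 0.30, 5.39 ± 0.29 and 5.07 ± 0.25, and the small heat shock protein HSP17.6A at 7.40 ± 0.62, 5.82 ± 0.61 and 6.13 ± 0.52. The values of HSP17.6A rest on 12, 15 and 21 counts in all in the control groups of wrky25 wrky33, wrky75 and Col-0. HSA32, needed for long-term acquired thermotolerance, was called lower in wrky75 (−0.71 ± 0.21) and Col-0 (−0.65 ± 0.18) and had −0.39 ± 0.20 in wrky25 wrky33 without a call. HSP18.2 was called in no genotype, at −0.23 ± 0.21, −0.42 ± 0.22 and −0.36 ± 0.18, and neither was GOLS1, a galactinol synthase, at −0.36 ± 0.40, −0.62 ± 0.40 and −0.14 ± 0.35. APX2, HSP21 and HSP22 had too few counts for a test. The list, also chosen with earlier results known, had a median of 5.12, 4.56 and 3.97 in wrky25 wrky33, wrky75 and Col-0. For all genes tested it was −0.09, −0.11 and −0.08. HSP23.6 entered these counts with 1, 2 and 5 counts in all in the control groups of wrky25 wrky33, wrky75 and Col-0. Its fold of ozone over control is not given in the text.

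**Figure D4:**
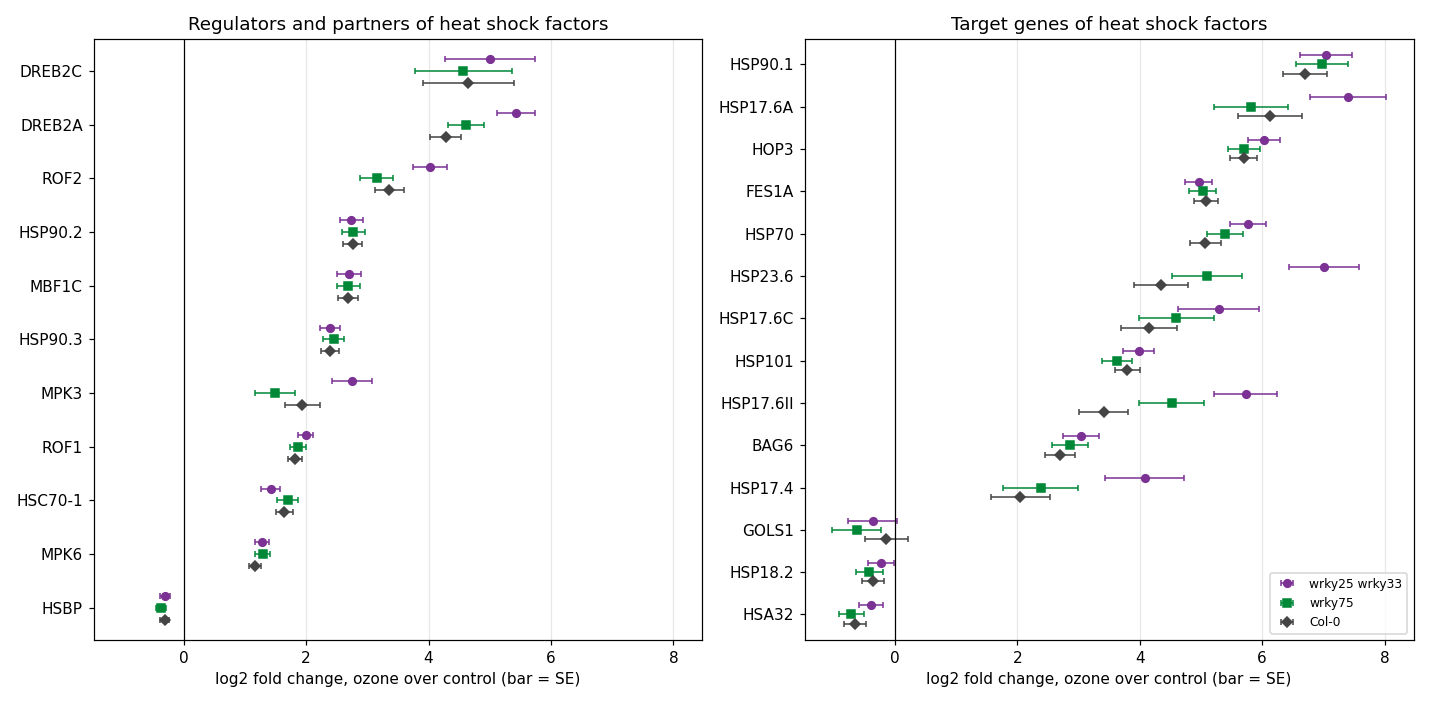
Log2 fold change, ozone over control (x axis, log2 units), of the 11 regulators and partners (left) and the 14 tested target genes (right) in wrky25 wrky33 (circles), wrky75 (squares) and Col-0 (diamonds), with standard errors as bars. HSBP is the single regulator below 0, and HSP90.1 lies between 6.70 and 7.04. The values of HSP23.6 rest on 1 to 5 counts per control group. Those of DREB2C rest on 5 or 6, those of HSP17.6C on 5 to 24 and those of HSP17.6A on 12 to 21.

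The mutants were compared with Col-0 to ask whether WRKY25 with WRKY33, or WRKY75, bear on these transcripts. Both mutants were set against the same Col-0 libraries. Without a replicate block, 0 of 9 heat shock factors were called in each of the 4 comparisons and in both differences between ozone responses, by edgeR and by DESeq2. With the block edgeR called 1 factor, HSFA1B, in wrky25 wrky33 under ozone and 1, HSFA8, in the difference between the ozone responses of wrky25 wrky33 and Col-0. In those differences 0.957% of all genes were called for wrky25 wrky33 and 0% for wrky75, and 3 and 0 of the 9 factors had an unadjusted p under 0.05, as did 9.07% and 1.75% of all genes. Over all genes 0.0251% were called in wrky25 wrky33 without ozone, 5.33% in wrky25 wrky33 under ozone, 0.0251% in wrky75 without ozone and 0.0251% in wrky75 under ozone. At an unadjusted p under 0.05 stood 1, 1, 0 and 1 of the 9 factors in that order, against 3.42%, 15.4%, 4.67% and 1.67% of all genes. The replicate numbers were taken to pair the mutant and Col-0 libraries of a treatment. For the heat shock factors, the fit with the replicate as a block is given beside each result whose call it changes. For the other listed genes that fit is not given. That block is shared by ozone and control libraries, so it does not model a pairing within each treatment. In wrky25 wrky33 the deviations of same-numbered ozone and control libraries from their group means correlated at r = 0.089, 0.038 and −0.093. In wrky75 they correlated at 0.167, 0.308 and −0.018, and in Col-0 at 0.335, 0.285, 0.096 and 0.405. Between same-numbered ozone libraries of wrky25 wrky33 and Col-0 the values were higher, at 0.708, 0.406 and 0.48. No fit paired libraries within a treatment.

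HSFA8 was the factor below the unadjusted threshold without ozone in wrky25 wrky33. The double mutant had 3.33, 2.8 and 2.33 CPM of HSFA8 in control, against 4.42, 8.88, 4.16 and 5.51 CPM in Col-0. All 3 mutant libraries lay below all 4 Col-0 libraries, as 2.32% of all genes did. The log2 fold change of HSFA8, mutant over Col-0, was −1.03 ± 0.34 (unadjusted p = 0.00815, adjusted p = 1), and −0.98 ± 0.28 with the replicate block (adjusted p = 0.564). In wrky75 control libraries HSFA8 stood at 2.77, 6.23 and 1.91 CPM, which overlapped with Col-0, and the log2 fold change was −0.65 ± 0.33 (adjusted p = 1). Under ozone the log2 fold changes of HSFA8 were 0.31 ± 0.28 in wrky25 wrky33 and 0.18 ± 0.28 in wrky75, neither of them a call (adjusted p = 0.731 and 1). The ratio of HSFA8 to the Col-0 library of the same number was 1.08 to 1.72 in wrky25 wrky33 and 1.08 to 1.21 in wrky75 under ozone, above 1 in 3 of 3 pairs each. Without ozone it was 0.315 to 0.753 in wrky25 wrky33 and 0.459 to 0.702 in wrky75, below 1 in 3 of 3 pairs each. Pairs all on 1 side of 1 were not particular to HSFA8. Without ozone HSFA7A, for example, was above 1 in 3 of 3 pairs in both mutants. The share of all genes with such pairs was not counted. The ozone response of HSFA8 in wrky25 wrky33 minus that in Col-0 was 1.34 ± 0.45 (adjusted p = 0.234), which became a call with the replicate block at 1.32 ± 0.34 (adjusted p = 0.0468, edgeR). The difference for wrky75 was 0.83 ± 0.44 (adjusted p = 1).

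HSFA1B was the factor below the unadjusted threshold under ozone in wrky25 wrky33. The double mutant had 9.19, 9.28 and 11.1 CPM of HSFA1B under ozone, against 6.51, 7.32, 7.4 and 7.1 CPM in Col-0. All mutant libraries lay above all Col-0 libraries, as 5.86% of all genes did, and the ratio to the Col-0 library of the same number was 1.27 to 1.5 in 3 of 3 pairs. HSFA2, HSFA4A and HSFA8 were also above 1 in 3 of 3 of these pairs, and HSFB2A was below 1 in each. The log2 fold change was 0.48 ± 0.18 (adjusted p = 0.18), and 0.57 ± 0.17 with the replicate block, which made it a call (edgeR adjusted p = 0.0436). In wrky75 under ozone HSFA1B stood at 7.96, 9.0 and 9.91 CPM, also above all Col-0 libraries, as for 0.762% of all genes, at 0.34 ± 0.19 (adjusted p = 1). Without ozone the values of HSFA1B were −0.14 ± 0.19 in wrky25 wrky33 and −0.04 ± 0.19 in wrky75. The difference between the ozone responses was 0.61 ± 0.26 for wrky25 wrky33 (adjusted p = 0.467) and 0.38 ± 0.26 for wrky75 (adjusted p = 1).

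HSFA4A, the factor with a W-box match in the stretch shown above, was not called between the double mutant and Col-0, at 0.33 ± 0.21 under ozone (adjusted p = 0.542) and −0.48 ± 0.24 without (adjusted p = 1). Its ozone response in wrky25 wrky33 minus that in Col-0 was 0.81 ± 0.32 (adjusted p = 0.389, and 0.84 ± 0.23 with adjusted p = 0.0674 with the replicate block). In wrky75 the difference of HSFA4A from Col-0 was −0.18 ± 0.22 under ozone and 0.01 ± 0.23 without. HSFA1A stood below the unadjusted threshold in wrky75 under ozone, with 3.5, 4.14 and 4.02 CPM against 4.55, 4.49, 5.16 and 5.38 CPM in Col-0, all mutant libraries lower, as for 1.55% of all genes, at −0.33 ± 0.13 (adjusted p = 1). HSFB2B, the other factor with a W-box match, stood at −0.14 ± 0.13 in wrky25 wrky33 and −0.22 ± 0.13 in wrky75 under ozone.

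The log2 fold changes of HSFA2 and HSFA1D, wrky25 wrky33 over Col-0 under ozone, were 0.01 ± 0.20 and 0.01 ± 0.10. In wrky75 under ozone HSFA2 stood at −0.26 ± 0.20. Its ozone response differed from that of Col-0 by 0.34 ± 0.35 in wrky25 wrky33 and −0.01 ± 0.41 in wrky75 (adjusted p = 0.955 and 1). HSFA7A stood at −0.15 ± 0.44 in wrky25 wrky33 under ozone and at 0.49 ± 0.37 without Col-0 ozone replicate 4, neither of them a call. The standard errors for HSFA7A, from 0.44 to 0.54 in the 4 comparisons, were the widest of the 9, and those for HSFA1D, at 0.10, the narrowest. Among the target genes 2 of 14 were called higher in wrky25 wrky33 than in Col-0 under ozone (1.56% of all genes were), the small heat shock proteins HSP17.6II (1.18 ± 0.33, adjusted p = 0.0429) and HSP23.6 (1.13 ± 0.27, adjusted p = 0.0178), and none of the regulators and other family members was. HSP17.6II had 19.6, 14.7 and 22.6 CPM in the double mutant, against 6.9, 8.49, 9.96 and 8.15 CPM in Col-0. HSP23.6 had 2.7, 2.22 and 3.87 CPM in the double mutant, against 1.03, 1.27, 1.6 and 1.46 CPM in Col-0. For both, all 3 mutant libraries were above all 4 Col-0 libraries, as for 4 of the 14 target genes and 5.86% of all genes. HSP70 and HSP17.6A were among those 4 without a call. Whether the calls of HSP17.6II and HSP23.6 hold in other settings is not given. No gene of the 3 lists was called in the other comparisons of mutants with Col-0.

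**Figure D5:**
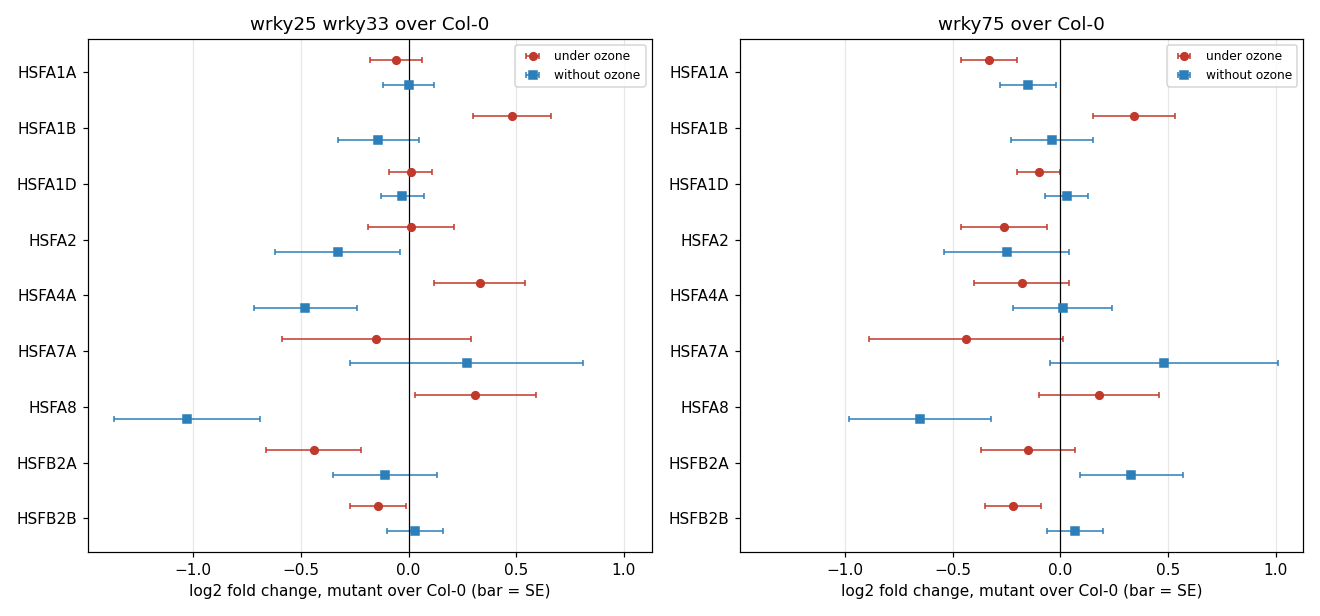
Log2 fold change of each measured heat shock factor, mutant over Col-0 (x axis, log2 units), under ozone (circles) and without ozone (squares), for wrky25 wrky33 (left) and wrky75 (right), with standard errors as bars. The widest departures from 0 are HSFA8 without ozone, at −1.03 in wrky25 wrky33 and −0.65 in wrky75, and none of the values passed the adjusted threshold.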

How the data were processed

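Transcripts were measured in 20 libraries of whole rosettes in 6 groups. The deposited values were raw counts of reads per gene, and the submitters' processing notes name TAIR10 as the authors' build and HTSeq, TopHat2, FastQC and SAMtools as tools, with no version or strand option. Of 33602 genes in the files, 7167 were at 0 throughout, and 0 lines named no gene. Totals ran from 20486137 to 20771667 counts, closer together than separate libraries usually are, and what made them so is not stated. Replicate libraries differed by more than sampling noise in every pair (chi-square per degree of freedom 6.47 to 68.96).

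From these counts, genes were filtered with filterByExpr (19954 left), scaled with TMM factors and fitted in 1 quasi-likelihood model over all 20 libraries with edgeR 4.0.16 in R 4.3.3. In each of 9 comparisons the quasi-likelihood F-test gave p-values, which were adjusted over the 19954 genes (Benjamini-Hochberg, threshold 0.05). Standard errors were derived as the absolute log2 fold change divided by the square root of its F statistic. They are therefore approximate, most of all for changes near 0. CPM use the TMM-scaled totals, and levels per kb use the RefSeq exon length in TAIR10.1, where 32835 loci (97.72%) matched. Upstream stretches came from the same assembly, and annotated starts and ends of many genes differ between it and the files. Same-numbered libraries of mutants and Col-0 deviated together (r = 0.159 to 0.777 within a treatment), and the numbers were taken to pair them. The exception was wrky75 control replicate 3, at 0.159 with its own number and 0.23 with another. Same-numbered libraries of ozone and control did not deviate together in every pair. The 27 alternatives were DESeq2 1.42.0 and its size factors, upper-quartile scaling, no filter, the replicate block, the groups compared alone, both Col-0 libraries of replicate 4 left out, and each of 20 libraries left out.

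The members and the gene lists were chosen with earlier results of these data known. All 9 measured members are described. Of the other family members, those called or left out by the filter are named. From each pathway list up to 4 called genes with the largest changes in each comparison were to be named, then up to 4 without a call, and a gene named in 1 genotype is given in all 3. Genes of like pattern were sought for the 2 members with the largest changes in Col-0. The overlapping neighbours, HSP90.3, HSBP and the gene with an upstream match outside the 10 were named after their values were seen.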

Additional observations from a re-analysis of the deposited data

Results flagged for a closer look

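In 18 sets of 4 Col-0 libraries, the 9 measured factors under ozone and in control, the highest or lowest library was checked for a gap to the others beyond Dixon's critical value for 4 samples. HSFA2 in Col-0 control replicate 3 stood at 2.25 CPM, above the other 3 control libraries of Col-0. HSFB2A in Col-0 control replicate 1 stood at 5.62 CPM, below the other 3. Chance marks about 1 in 20 such sets. Of 18 tests of whether the ozone response of a member differed between a mutant and Col-0, 0 passed the threshold in edgeR without a replicate block, and 1 passed with it, HSFA8 in wrky25 wrky33 (1.32 ± 0.34, adjusted p = 0.0468).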

How the results depend on the processing

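Under 27 alternatives the 7, 6 and 7 calls of heat shock factors under ozone in wrky25 wrky33, wrky75 and Col-0 ran from 6 to 7, 6 to 7 and 7 to 8. No value that was called changed sign. The calls that depended on a setting were those of HSFA7A, HSFA1A and HSFA1B given above, and HSFA7A in wrky75 was called with the replicate block (0.76, adjusted p = 0.0304) and with the groups compared alone (0.85, adjusted p = 0.0411). The replicate block made 1 factor a call in wrky25 wrky33 under ozone (0 in the main analysis) and 1 in the difference of its ozone response from that of Col-0 (0 in the main analysis), which were HSFA1B and HSFA8, and changed no other call of a factor between mutants and Col-0. Own-numbered libraries correlated best in 18 of 22 pairs.

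Counts over all genes moved more. For wrky25 wrky33 without ozone, 5 genes were called, 19 by DESeq2, 1 with the groups compared alone, and 1 to 8 with a library left out. Under ozone there were 1064, 2394 with the block, 707 with the groups alone, and 583 to 1188 with a library left out. For wrky75 without ozone there were 5, 27 by DESeq2, and 3 to 64 with a library left out, the highest without wrky75 control replicate 1. Under ozone there were 5, 10 with the block, and 5 to 7. The difference for wrky25 wrky33 had 191, 372 by DESeq2, 618 with the block, 113 with the groups alone, and 76 to 226; that for wrky75 had 0 (349 at an unadjusted p under 0.05) and 2 by DESeq2. Upper-quartile scaling moved the median of all genes under ozone to −0.271, −0.295 and −0.281 in wrky25 wrky33, wrky75 and Col-0. The causes were not tested. Small groups limit the mutant comparisons, and HSFA7A rests on the fewest counts of the 9.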
